A study of Drosophila melanogaster with 34 samples.

Results

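The 2 sites described here, 28S Um3454 and 28S Gm3455, are adjacent nucleotides of the large ribosomal RNA of Drosophila melanogaster. They were chosen by annotation: of the 72 rRNA positions in the deposited tables, these are the 2 whose entry names a protein methyltransferase, CG8939 for the uridine and yeast SPB1 for the guanosine. The other sites have a listed guide RNA (59 sites) or an unknown guide (11 sites). The site names give the bases as U and G, and a second name in the tables numbers each of the pair 1 lower. The tables also write Psi, the symbol of pseudouridine, into the name of the uridine, which is left out of it here. The tag m62A that they write into the names of 18S Am1976 and 18S Am1977 is left out as well. Positions count along the 28S rRNA in the authors' numbering, and that the pair lies in the A-loop rests on the annotation, since no rRNA sequence was read here. CG8939, for which the RefSeq gene table of Drosophila Release 6 lists the synonym dSpb1, is a protein-coding gene on chromosome X, from 15997016 to 15999698.

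Most 2′-O-methyl groups of rRNA are placed by Fibrillarin, which is led to its target by a box C/D small nucleolar RNA. A few are placed by enzymes that recognise the rRNA without a guide. Spb1 of budding yeast is one of these: it methylates the guanosine of a U-G pair in the A-loop, the hairpin of the large subunit that holds the CCA end of the tRNA in the A site. In yeast the neighbouring uridine is methylated with a guide RNA and can also be methylated by Spb1. The human relative of Spb1 is FTSJ3, and in bacteria the uridine of this loop is methylated by FtsJ. Loss of CG8939 was not analysed here.

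RiboMeth-seq was run on 34 libraries in 9 groups. RNA is broken by alkali, and a 2′-O-methyl group protects the bond that follows it, so a methylated position gives few read ends and a deposited methylation score near 1. S2R+, a cultured Drosophila line, was treated with double-stranded RNA against bacterial lacZ (LacZ, 4 libraries) or against Fibrillarin (Fib, 4 libraries). Heads of female flies came from 3 stress experiments. Flies were kept for 8 days on 5% sucrose (3 libraries) or on the same sucrose to which paraquat was added at 2.5 nM, a unit taken from the labels (3 libraries). Others were kept for 8 days in darkness at 18, 25 or 29 °C (4 libraries each). The last were kept for 10 days on a low-nutrient food, labelled 0.25x sugar and no a.a. (4 libraries), or on 1x home-made food (4 libraries). The titles of the sucrose and paraquat libraries carry d17, which the labels do not explain. No strain is named and no age is stated otherwise, heads mix many cell types, and the Fib transcript and cell type markers cannot be read from rRNA tables. Whether replicates were separate cultures or fly pools is not stated, so p-values measure the spread between libraries, which may be technical.

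The median coverage of a site ran from 28370.5 to 104242 reads over the libraries. Coverage at 28S Um3454 ran from 26658 reads in 18 °C replicate 3 to 98356 in 29 °C replicate 1. It was 0.613 to 1.40 times the median site of the same library. Coverage at 28S Gm3455 was almost the same number in each library, and the difference was exact: in 34 of 34 libraries it equalled the coverage of 28S Um3454 less its 3′ ends plus its 5′ ends. Had the 5′ ends listed for the guanosine been the reads that start on it, the sum would have been met in 0 of 34. The same identity held in 34 of 34 libraries at each of the other adjacent pairs, 28S Am1691 with 28S Gm1692 and 18S Am1976 with 18S Am1977. Both end counts of a row therefore describe the bond that follows the named nucleotide. The read ends of the uridine and of the guanosine are counts of different bonds, while their coverages are nearly the same reads.

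The 2 bonds differed in which read ends they gave. At 28S Um3454 nearly all ends were 3′ ends: 30 to 395 per library, against 0 to 11 5′ ends. Over all libraries 2.97% of its ends were 5′ ends, the fourth lowest share of the 72 sites, whose median was 31.0%. At 28S Gm3455 there were 6 to 105 3′ and 2 to 76 5′ ends per library, and 35.8% of all its ends were 5′ ends. These shares pool libraries that differed. By group the mean share of the uridine ran from 0% on sucrose and 1.38% in LacZ cells to 4.74% at 18 °C, and that of the guanosine from 23.7% on 1x food to 52.4% in Fib cells. The uridine had no 5′ end in LacZ replicate 3, in the 3 sucrose libraries or in paraquat replicates 1 and 2. At their coverage a count of 0 allows up to 0.485 (sucrose replicate 3) to 0.782 (sucrose replicate 2) 5′ ends per 10000 reads.

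The guanosine scored above the uridine in every one of the 34 libraries. The gap between the 2 scores was narrowest at 25 °C, at 0.0178 ± 0.00121 (SD, n = 4), and widest in Fib cells, at 0.0949 ± 0.0173 (n = 4). It was 0.0595 ± 0.00977 in LacZ cells (n = 4), 0.0235 ± 0.00786 on sucrose (n = 3) and 0.0653 ± 0.0121 with paraquat (n = 3). The remaining head groups had mean gaps of 0.0260 to 0.0307.

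Sorted by mean score, 28S Um3454 was highest on sucrose, at 0.964 ± 0.00499 (SD, n = 3). 25 °C (0.957 ± 0.00565, n = 4), 18 °C (0.952 ± 0.00740, n = 4), 29 °C (0.951 ± 0.00318, n = 4), low-nutrient food (0.948 ± 0.00487, n = 4) and 1x food (0.947 ± 0.00700, n = 4) followed, and each of these overlapped the next in its range of libraries. A step came below 1x food: paraquat heads lay at 0.916 ± 0.0141 (n = 3), overlapping LacZ cells at 0.908 ± 0.00469 (n = 4). Fib cells were lowest, at 0.857 ± 0.0189 (n = 4), with no library in the LacZ range.

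28S Gm3455 was ordered otherwise. It too was highest on sucrose, at 0.988 ± 0.00288 (SD, n = 3), but paraquat heads came next, at 0.982 ± 0.00466 (n = 3). The 18, 25 and 29 °C, low-nutrient and 1x groups lay between 0.975 and 0.979. LacZ cells had 0.968 ± 0.00683 and Fib cells 0.952 ± 0.00704 (n = 4 each). Every group in this order overlapped the next.

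**Figure D1:**
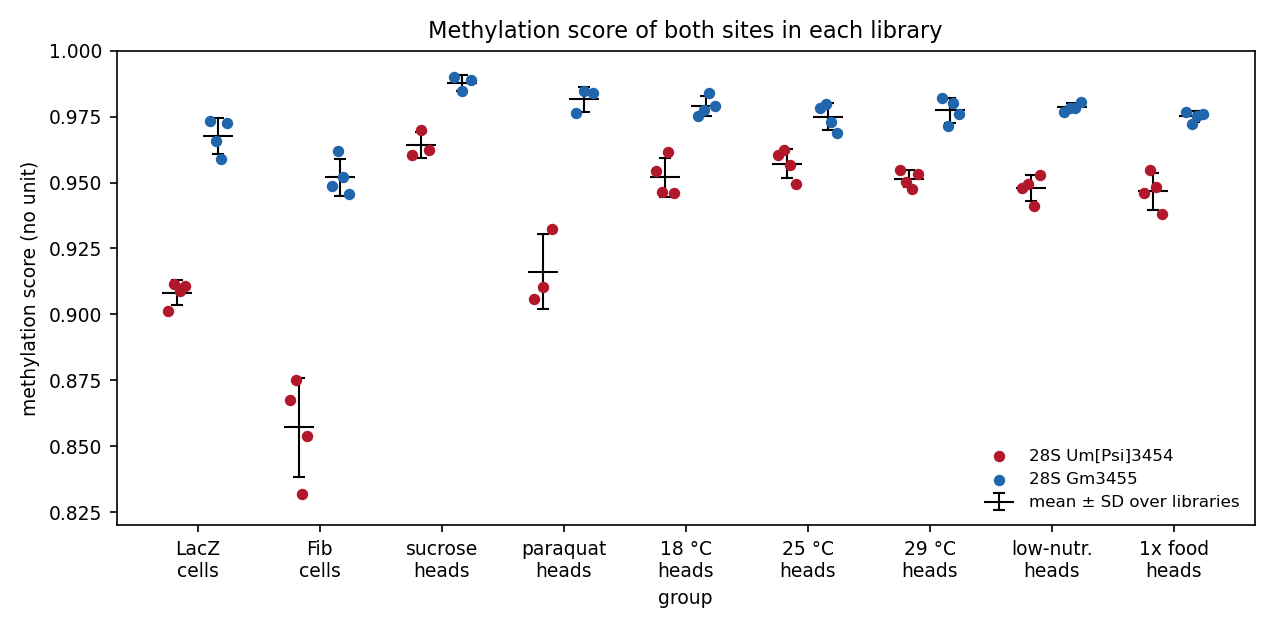
Methylation score (y axis, no unit, shown from 0.82 to 1) of 28S Um3454 and 28S Gm3455 in the 9 groups (x axis); each point is a library and bars are mean ± SD. The guanosine lies above the uridine in every library, and the uridine is lowest in Fib cells, with means of 0.857 against 0.952.

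The knockdown of Fibrillarin asks how far sites depend on the guided enzyme. 28S Um3454 fell in Fib cells and 28S Gm3455 did not pass the test on its score, while read ends rose at both. The uridine scored 0.901, 0.912, 0.909 and 0.911 in LacZ replicates 1 to 4 and 0.867, 0.875, 0.832 and 0.854 in Fib replicates 1 to 4. All Fib libraries lay below all LacZ libraries, and the share of all sites that separate in this way was not counted. The difference was -0.0511 (95% interval -0.0764 to -0.0257, adjusted p = 0.00262, limma with Benjamini-Hochberg adjustment over 72 sites). Of all sites 80.6% were called lower, with a median difference of -0.143, so the call itself did not set the uridine apart. Its fall was smaller than that of 56 of the 72 sites.

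28S Gm3455 scored 0.973, 0.966, 0.959 and 0.973 in LacZ and 0.949, 0.962, 0.952 and 0.946 in Fib libraries. The ranges overlapped, since Fib replicate 2 stood above LacZ replicate 3. The difference was -0.0156 (95% interval -0.0337 to 0.00240, adjusted p = 0.0960). With the log2 odds of the score, a variance trend or 1 fit over all groups it passed as lower (adjusted p = 0.0292, 0.0187 and 0.000652).

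Read ends rose at both bonds. Per 10000 covering reads, the uridine had 25.9 ± 1.31 ends in LacZ and 44.6 ± 6.86 in Fib cells (SD, n = 4 each), 1.71-fold more (95% interval 1.32 to 2.20, adjusted p = 0.00121). The guanosine had 10.3 to 14.1 ends in LacZ and 16.4 to 22.9 in Fib libraries (n = 4 each), 1.64-fold more (1.23 to 2.19, adjusted p = 0.00404). At both sites the lowest Fib library was above the highest LacZ library, a separation that was not counted over the other sites. Over all sites 83.3% were called higher in read ends, with a median log2 difference of 1.99, against 0.77 for the uridine and 0.72 for the guanosine. These folds are on the log2 scale of ends with 1 added. From 5′ ends alone, of which the uridine has few, its call was lost (adjusted p = 0.0761).

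Both scores moved less than those of most sites with a listed guide, of which 56 of 59 fell with a median difference of -0.169. In the class of unknown guide 1 of 11 fell, and the median was -0.00217. No test between these classes and the pair was made. The nearest listed sites on either side have listed guides: 28S Cm3422, 32 bases before the pair, went from 0.893 ± 0.0206 to 0.707 ± 0.0272, and 28S Am3478, 23 bases after it, from 0.897 ± 0.0224 to 0.600 ± 0.0806 (SD, n = 4 each). Counted from the largest fall, 28S Gm3455 ranked 19 of the 21 G sites and 28S Um3454 ranked 6 of the 9 U sites.

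Both sites stood higher in the order of sites in Fib than in LacZ libraries. 28S Gm3455 ranked 21 to 28 of 72 in LacZ libraries and 1, 1, 2 and 4 in Fib libraries, and its mean of 0.952 was the highest of the 72 in Fib cells. 28S Um3454 ranked 51 to 54 in LacZ and 23 to 29 in Fib libraries. Set against the median site of the same library, the uridine differed by -0.0526 to -0.0364 in LacZ and by 0.0223 to 0.0850 in Fib libraries. Centred in this way the differences were 0.0940 for the uridine and 0.129 for the guanosine. By construction this turns the sign of any site that fell by less than the median site, which went from 0.948 to 0.810, so it adds nothing to the ranks.

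**Figure D2:**
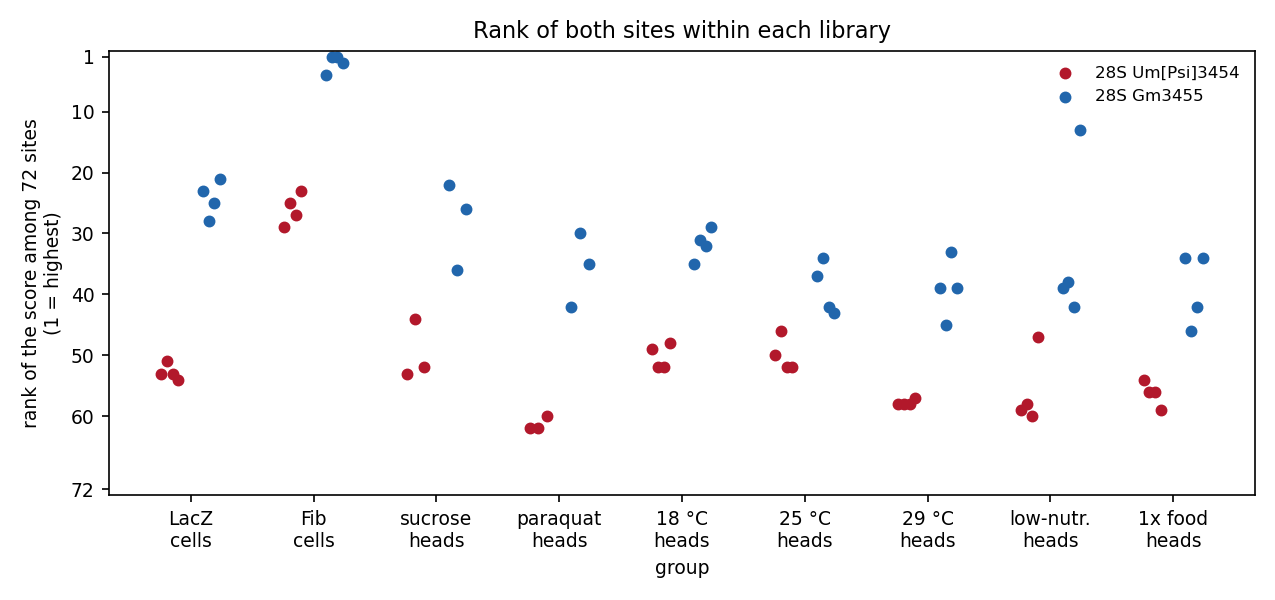
Rank of each site among the 72 scores of its own library (y axis, 1 at the top is the highest score) by group (x axis); each point is a library. In Fib libraries the guanosine holds ranks 1 to 4 and the uridine 23 to 29.

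The cell libraries fall into 2 sets by library number, with replicates 1 and 2 in set A and 3 and 4 in set B. The uridine fell in both: its difference was -0.0352 with replicates 1 and 2 and -0.0669 with replicates 3 and 4 (2 libraries a group, adjusted p = 0.00960 and 0.00587). These fits of 1 set alone were added after seeing the data. The difference between the sets was -0.0317 (95% interval -0.0644 to 0.00103) and did not pass (adjusted p = 0.0888, where 40 of the 72 sites passed). At the guanosine the differences were -0.0144 and -0.0168, and neither passed (adjusted p = 0.162 and 0.201). Its read ends rose in each set alone (adjusted p = 0.0331 and 0.0336).

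Paraquat, a redox cycler used to cause oxidative stress, was compared with sucrose alone. Read ends rose at 28S Um3454, and it was the single site of the 72 to pass on that readout. On 5% sucrose it had 52 ends at a coverage of 52415, 30 at 38348 and 61 at 61806, and with paraquat 116 at 48852, 103 at 43131 and 62 at 34217. That is 9.20 ± 1.20 ends per 10000 reads on sucrose and 21.9 ± 3.29 with paraquat (SD, n = 3 each). The fold was 2.35 (95% interval 1.71 to 3.23, adjusted p = 0.0346), and 1.39% of all sites were called. Of these ends all but 2, both in paraquat replicate 3, were 3′ ends.

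The call did not hold when most single libraries were left out. It was lost without paraquat replicate 1 or 2 (adjusted p = 0.189 and 0.179), without sucrose replicate 1, 2 or 3 (0.119, 0.158 and 0.144), with 3′ ends alone (0.0831), with 5′ ends alone (0.766) and with the replicate number as a block (0.190). It held without paraquat replicate 3 (0.0447). The fold kept its direction in each, and over all settings tried the adjusted p ran from 0.0270 to 0.766.

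In score the uridine gave 0.961, 0.970 and 0.962 on sucrose and 0.906, 0.911 and 0.932 with paraquat. The groups did not overlap, though the share of all sites that separate in this way was not counted. The 3 paraquat libraries lay below every other head library, of which 1x replicate 4 was lowest at 0.938. The difference of -0.0480 (95% interval -0.0668 to -0.0293) was the largest of the 72 sites in size, against a median of -0.00135, and did not pass (adjusted p = 0.0683, with 0% of sites called and 8 at an unadjusted p under 0.05). It passed without paraquat replicate 3 (adjusted p = 0.00429), and over all settings its adjusted p ran from 9.03e-05 to 0.496. The deposited alternative scores were lower with paraquat too, by -0.141 and -0.0897, without passing (adjusted p = 0.296 and 0.496).

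The guanosine next to it differed less. 28S Gm3455 scored 0.990, 0.985 and 0.989 on sucrose and 0.976, 0.985 and 0.984 with paraquat. The ranges overlapped, since paraquat replicate 2 stood just above sucrose replicate 2, and the difference of -0.00622 did not pass (95% interval -0.0140 to 0.00153, adjusted p = 0.575). Its read ends were 4.33 ± 1.00 and 6.62 ± 1.56 per 10000 reads (SD, n = 3 each, adjusted p = 0.565). The gap between the sites was 0.0146 to 0.0294 on sucrose and 0.0515 to 0.0742 with paraquat. No test of this gap was made. The pair was defined by annotation but picked for description with earlier results known, which applies to every p-value given for it. The nearest listed sites gave 0.960 ± 0.00475 and 0.959 ± 0.00209 at 28S Cm3422 and 0.985 ± 0.000920 and 0.976 ± 0.00538 at 28S Am3478, sucrose first (n = 3 each).

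At the uridine the sucrose group had fewer read ends than the other control heads, with no overlap, and so did the guanosine. Neither difference was tested, and the share of all sites that separate in this way was not counted. Sucrose libraries had 7.82 to 9.92 ends per 10000 reads at the uridine, against 12.6 to 17.6 at 25 °C and 14.8 to 18.5 on 1x food. Paraquat libraries, at 18.1 to 23.9, overlapped the 1x range. At the guanosine sucrose libraries had 3.63 to 5.48 ends, against 8.39 to 13.4 at 25 °C and 8.60 to 11.2 on 1x food, and paraquat libraries had 5.58 to 8.41. The median over all 72 sites was 15.4 on sucrose, 15.9 with paraquat, 19.7 at 25 °C and 20.7 on 1x food. The paraquat experiment forms a library set of its own, so the sucrose libraries and the other control heads differ in set as well as in treatment, and these cannot be told apart. Within that set coverage at the uridine was 1.05 ± 0.0644 times the library median on sucrose and 1.04 ± 0.0659 with paraquat (n = 3 each).

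**Figure D3:**
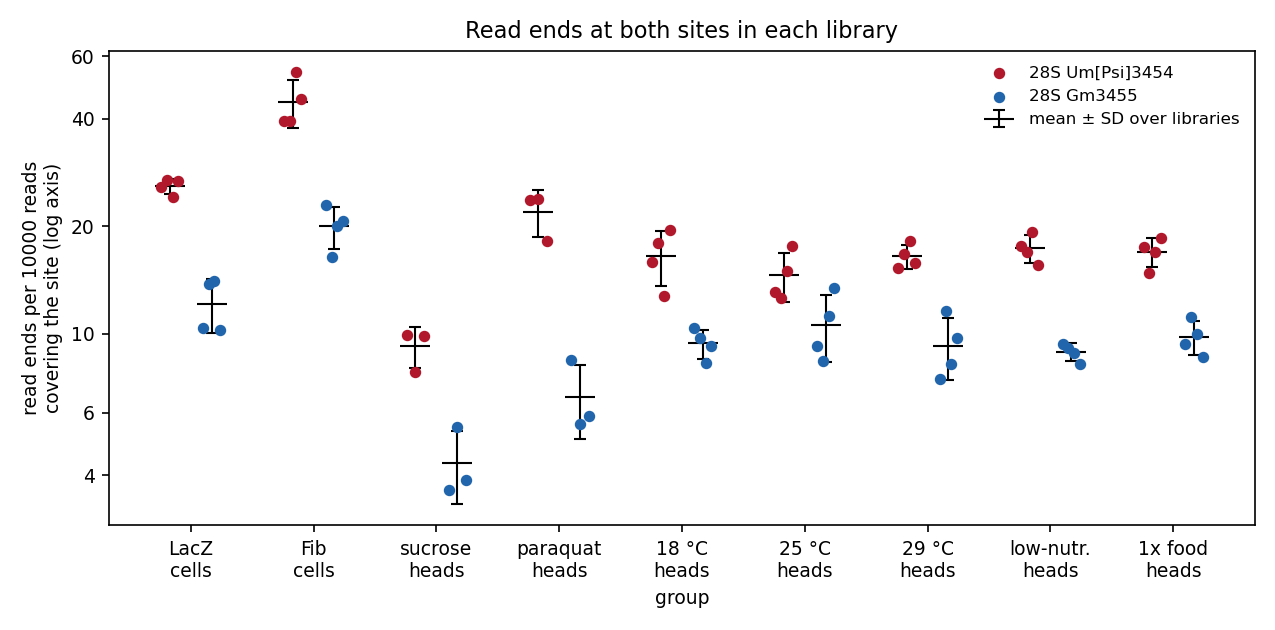
Read ends (5′ plus 3′) per 10000 reads covering the site (y axis, log scale) at both sites in the 9 groups (x axis); points are libraries and bars are mean ± SD. At 28S Um3454 the 3 paraquat libraries (18.1 to 23.9) lie above the 3 sucrose libraries (7.82 to 9.92), and Fib cells lie above LacZ cells at both sites.

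Neither site passed the test in any temperature comparison. 28S Um3454 scored 0.946 to 0.962 at 18 °C, 0.950 to 0.962 at 25 °C and 0.947 to 0.955 at 29 °C (4 libraries each), and the ranges overlapped. Between 29 and 18 °C the difference was -0.000688 (95% interval -0.00930 to 0.00793, adjusted p = 0.914), where 20.8% of all sites passed and 19.4% were higher at 29 °C. The 29 to 25 °C difference was -0.00582 (interval -0.0144 to 0.00280, adjusted p = 0.380; 6.94% of sites passed) and the 18 to 25 °C difference -0.00513 (interval -0.0137 to 0.00348, adjusted p = 0.533; 1.39% passed). With temperature as a number the slope was 2.73e-05 per °C (interval -0.000794 to 0.000849, adjusted p = 0.958), where 16.7% of sites passed and 15.3% rose. 18 °C replicate 3 had the highest score of its group and the lowest coverage of all libraries.

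28S Gm3455 scored 0.975 to 0.984 at 18 °C, 0.969 to 0.980 at 25 °C and 0.971 to 0.982 at 29 °C. Its differences were -0.00160 for 29 against 18 °C, 0.00232 for 29 against 25 °C and 0.00391 for 18 against 25 °C. The 95% intervals of all 3 lay between -0.00862 and 0.0109, and none passed (adjusted p = 0.843, 0.665 and 0.584). Read ends also gave no call at either site in the temperature comparisons, with adjusted p from 0.450 to 0.989. Of all sites 20.8% passed on read ends between 29 and 18 °C, all lower at 29 °C, 9.72% between 29 and 25 °C, 1.39% between 18 and 25 °C and 19.4% for the slope, of which 18.1% fell and 1.39% rose. The folds between 29 and 18 °C were 1.00 for the uridine (95% interval 0.785 to 1.28) and 0.967 for the guanosine (0.738 to 1.27). The slope of the guanosine was -0.000192 per °C (interval -0.000819 to 0.000435, adjusted p = 0.713), and of the settings tried it passed with scores centred on library medians alone (-0.000698 per °C, adjusted p = 0.0448).

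Neither site passed the test between foods. 28S Um3454 scored 0.948, 0.950, 0.941 and 0.953 on low-nutrient and 0.946, 0.955, 0.948 and 0.938 on 1x food. The difference was 0.00108 (95% interval -0.00859 to 0.0108, adjusted p = 0.977; 4.17% of sites passed). 28S Gm3455 scored 0.977 to 0.981 on low-nutrient and 0.972 to 0.977 on 1x food, with a difference of 0.00345 (interval -0.00151 to 0.00840, adjusted p = 0.541). Its ranges did not overlap, though by so little that both bounds round to 0.977, and the share of all sites without overlap was not counted. Read ends differed by 1.03-fold at the uridine and 0.916-fold at the guanosine (adjusted p = 0.932 and 0.758; 1.39% of sites passed).

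**Figure D4:**
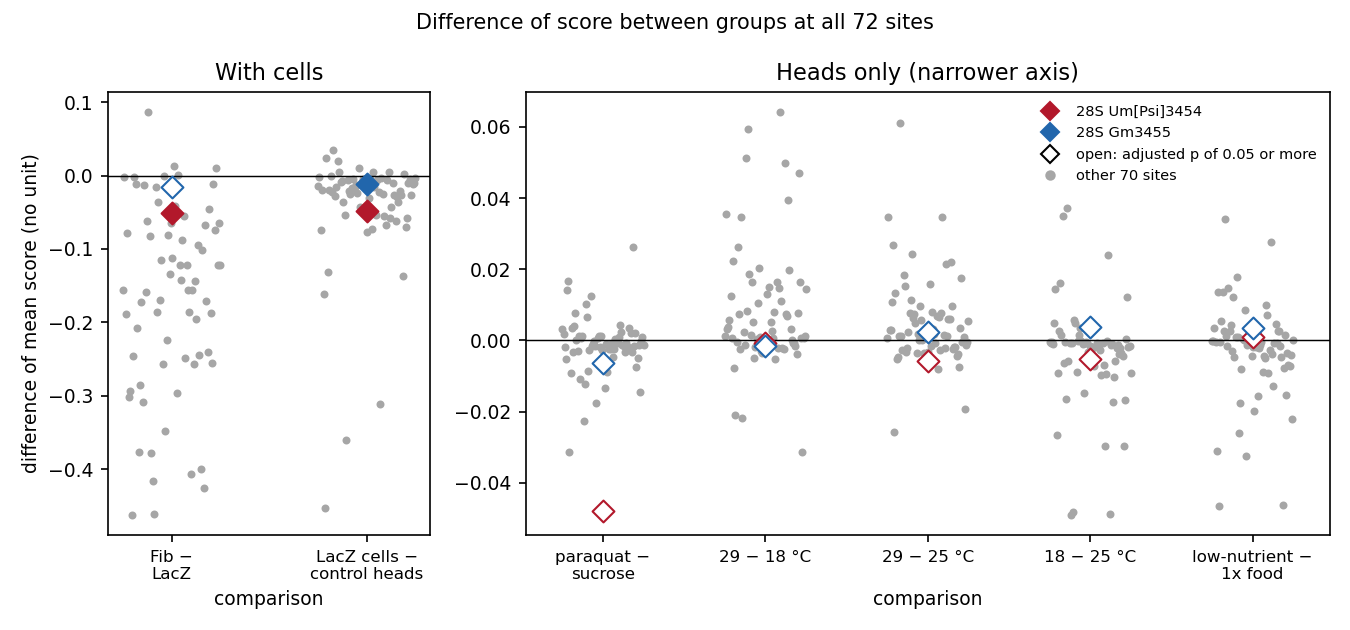
Difference of the mean score between groups (y axis, no unit) at the 72 sites for 7 comparisons (x axis); grey points are the other 70 sites, diamonds the pair, filled where the adjusted p was under 0.05, and the panel of head comparisons has a narrower axis. In the paraquat comparison 28S Um3454 is the lowest of the 72 sites, at -0.0480, and in the knockdown both diamonds lie near the top of the cloud.

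Control cells were set against control heads. In LacZ cells both sites had lower scores and more read ends than in control heads, taken as the average of the groups on sucrose, at 25 °C and on 1x food. 28S Um3454 had 0.901 to 0.912 in the 4 LacZ libraries and 0.938 to 0.970 in the 11 head control libraries, with no overlap. How many of all sites separate in this way was not counted. For 28S Um3454 the test gave the following. Its difference was -0.0479 (95% interval -0.0552 to -0.0406, adjusted p = 3.41e-08), and it was the lowest difference among the 9 U sites. Of all sites 72.2% passed and 68.1% were lower, with a median difference of -0.0197. 28S Gm3455 had 0.959 to 0.973 in cells and 0.969 to 0.990 in heads, which overlapped, and a difference of -0.0116 (interval -0.0178 to -0.00544, adjusted p = 0.00270). With the authors' mean score this call was lost (-0.00270, adjusted p = 0.559).

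The read ends were 1.97-fold higher in cells at the uridine (95% interval 1.65 to 2.34, adjusted p = 2.37e-06) and 1.58-fold higher at the guanosine (1.25 to 1.98, adjusted p = 0.00125), where 75% of all sites passed, 66.7% higher and 8.33% lower. At the guanosine the call was lost with 3′ ends alone, where the log2 difference was 0.22 (adjusted p = 0.256). At the uridine 3′ ends alone gave a log2 difference of 1.00 and 5′ ends alone gave -0.24 (adjusted p = 0.675). Centred on library medians, the guanosine turned to 0.0164 higher in cells (adjusted p = 3.10e-05) and the uridine stayed lower, at -0.0199 (adjusted p = 9.09e-05). No library set held both cells and heads, so the tissue cannot be told apart from the set. With the set as a random block both scores passed (adjusted p = 5.25e-06 and 0.0415). That fit cannot separate the tissue from the set either, since each set held only cells or only heads.

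The sites most like the pair were sought among the other 71 for each. By the root mean square difference of the 9 group means, 18S Gm393 (0.0212), 28S Cm2716 (0.0274) and 28S Um1859 (0.0307) were closest to 28S Um3454, and its neighbour 28S Gm3455 came thirtieth (0.0481). 18S Gm393 and 28S Cm2716 have listed guides, and 28S Um1859 has an unknown guide. In the order given, their Fib minus LacZ differences were -0.0821, -0.0549 and -0.0110 (limma adjusted p = 8.22e-05, 0.000253 and 0.545). That of 28S Um3454 was -0.0511. 28S Gm3326 (0.00849), 28S Am1017 (0.00882) and 28S Am3420 (0.0132) were closest to 28S Gm3455. These 3 have listed guides and went from 0.986, 0.983 and 0.987 in LacZ to 0.940, 0.948 and 0.946 in Fib cells. Their differences of -0.0459, -0.0353 and -0.0414 passed (limma adjusted p = 0.00164, 0.00170 and 0.00944). That of 28S Gm3455, -0.0156, did not in the same fit, though it passed as lower under other settings. The LacZ and Fib means are among the 9 group means by which all these sites were found, so their values are descriptions. No test between them and the pair was made.

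Across the 26 head libraries the score of 28S Gm3455 was closest to those of 18S Am1977 (Pearson r = 0.750) and 18S Gm1300 (0.724), both of unknown guide. Next came 28S Am1347 (0.634), which has a listed guide. Within the 20 libraries of the temperature and food experiments the values, in the same order, were 0.707, 0.511 and 0.412. For 28S Um3454 the highest were 18S Gm393 (0.365), 18S Am469 (0.323) and 18S Um586 (0.296), and within the 20 libraries 0.134, 0.154 and 0.364. All of these values share the same libraries and are descriptions. Between the 2 members, within those 20 libraries, r was 0.208 (permutation p = 0.380) and Spearman's rho 0.117 (permutation p = 0.620), and r was 0.134 without the 2 libraries farthest from the median. The permutations ignored the groups, so these p-values mix differences between groups with the spread of libraries within them.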

How the data were processed

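RiboMeth-seq libraries were read as single ends of 50 bases after hydrolysis of 150 ng total RNA for 16 min at 96 °C, per the labels' protocols. Trimmomatic 0.39, Bowtie2 and the build dm6 are named, per the submitters' processing notes. The formula of the score is not stated in what was read here. The authors deposited 3 scores per site, of which the methylation score used here is the third (C), and a coverage signal without normalization. The authors also deposited 5′ and 3′ end signals, which hold whole numbers or 0.1, taken here as no end. The scores called A and mean below are the authors' other 2. No rRNA or protein sequence was used here.

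Scores, and log2 of the ends plus 1 per 10000 covering reads, were fitted over all 72 sites with limma 3.58.1 in R 4.3.3 (two-sided, Benjamini-Hochberg, threshold 0.05). Temperature groups shared 1 fit. The pipeline was tested on simulated data. Summaries used Python 3.11.15, pandas 2.3.3, numpy 2.4.6 and scipy 1.17.1. The Fib and LacZ values printed come from the fit without a replicate block. Deviations of same-numbered Fib and LacZ libraries correlated in all 4 pairs (r from 0.165 to 0.574), although libraries 3 and 4 each matched the other number better. Same-numbered libraries also share a library set, and a match by number was not told apart from one by set. The replicate block was run as an alternative. With the set as a block instead, the limma adjusted p of the score was 0.00223 (uridine) and 0.0917 (guanosine). In each head comparison at least 1 correlation of same-numbered libraries was below 0 and others were above 0. The labels do not say what the numbers stand for, so whether they pair head libraries is not known. Library sets are runs of consecutive library numbers in the tables. Limits for a count of 0 use 3 counts and cover counting error only. How many of the 72 sites had ranges without overlap was not counted in any comparison, so overlap is given as a description. Members, lists and named sites (the nearest listed sites and the 3 most alike by each of 2 measures) were chosen with earlier results of these data known. Alternatives covered the scale, score, centring, block, variance trend, a coverage minimum of 1000, pseudocounts of 0.5 and 2, the ends used and each library left out.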

Additional observations from a re-analysis of the deposited data

How the results depend on the processing

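Apart from the libraries left out, 203 of the values recomputed under other settings kept their direction and their side of the threshold, 6 lost a call, 7 gained one and 16 turned. When single libraries were left out, 310 held, 5 lost a call, 1 gained one and 24 turned. The Fib calls kept their side of the threshold with each library left out. Causes were not tested. Centring on library medians turned the Fib score differences to 0.0940 (28S Um3454) and 0.129 (28S Gm3455), since the median site itself was 0.948 in LacZ and 0.810 in Fib cells. It turned LacZ against heads at the guanosine to 0.0164, 29 against 25 °C there to -0.000495 and the slope of the uridine to -0.000479, and the slope of the guanosine passed (-0.000698). The Fib score of the guanosine passed on the log2 odds scale (-0.48) and, at -0.0156, with a variance trend or 1 fit over all groups. The paraquat score of the uridine passed under the same settings (-1.10 on the log2 odds scale, -0.0480 otherwise; adjusted p = 0.00635, 0.00587 and 9.03e-05).

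With the authors' mean score, the paraquat difference of the guanosine was 0.000734, the slope of the uridine -0.000115, its low-nutrient difference -0.00438, and LacZ against heads at the guanosine lost its call (-0.00270, adjusted p = 0.559). With their A score, 29 against 18 °C at the uridine was 0.0175. In log2 read ends, 5′ ends alone lost the Fib call of the uridine (1.29) and its paraquat call (0.79). They turned its values to -0.31 for 29 against 18 °C and -0.24 for LacZ against heads, and the values of the guanosine to 0.036 for 18 against 25 °C and 0.20 for low-nutrient food. With 3′ ends alone the paraquat call of the uridine (1.22) and the LacZ against heads call of the guanosine (0.22) were lost, and the guanosine turned to 0.32 for 29 against 18 °C and 0.032 for the slope. A pseudocount of 2 gave -0.0048 for 29 against 18 °C at the uridine. The replicate block removed the paraquat call of the uridine in read ends (1.23, adjusted p = 0.190) and changed no other call of either site. Whether the numbers pair the paraquat and sucrose libraries is not known.

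With single libraries left out, the paraquat score difference of the uridine ran from -0.0560 to -0.0429 and its log2 read ends from 1.13 to 1.36. Score differences that turned ran, for 29 against 18 °C, from -0.00275 to 0.00249 (uridine) and -0.00315 to 0.000385 (guanosine), for the slope of the uridine from -0.000208 to 0.000285 and for its low-nutrient difference from -0.00187 to 0.00380. Log2 read ends that turned ran, for 29 against 18 °C, from -0.11 to 0.085 (uridine) and -0.16 to 0.048 (guanosine), for the slope from -0.012 to 0.0064 and -0.0084 to 0.0074, and for low-nutrient food at the uridine from -0.027 to 0.085.

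The number of the 72 sites called, which is the background for the pair, moved by over 1.5 times, or to or from 0, in 85 of 286 settings. In score, 29 against 18 °C went from 15 to 30 (centred) or 2 (1 fit over all groups), 29 against 25 °C from 5 to 12 or 0, the slope from 12 to 29 or 2, and LacZ against heads from 52 to 29 in that fit. In read ends, 29 against 18 °C went from 15 to 29 (5′ ends) or 1 (3′ ends), 29 against 25 °C from 7 to 18 or 0 and the slope from 14 to 27 or 6. The low-nutrient score count went from 3 to 0 on the log2 odds scale, and the paraquat score count from 0 to 1, the uridine, in the 3 settings above. The few 5′ ends of the uridine limit what 5′ ends alone can show, and 3 or 4 libraries a group limit the precision of every difference.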
